A study of Mus musculus with 4 samples.

Results

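Sialyltransferases are the Golgi enzymes that place sialic acid at the ends of glycan chains on proteins and lipids. Described here are 10 sialyltransferase genes of the mouse, taken by symbol from a count table of 34866 genes: St3gal1 to St3gal6, St6gal1, St6galnac1, St6galnac2 and St6galnac4. All 10 were in the table, and 9 had enough counts to be tested among 14067 genes. The exception was St6galnac1. RNA sequencing was done on gastric mucosa of the corpus from Muc6 -/- mice (knockout, 2 libraries) and from Muc6 +/+ mice (wild type, 2 libraries). The purpose stated for the series is to relate Muc6, a gel-forming mucin of the gastric glands, to gastric carcinogenesis. The labels give no strain, age or sex, and say neither how the allele was made nor whether each library stands for its own animal. The p-values therefore cover only the spread between these libraries, which may be technical.

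The enzymes take sialic acid from CMP-sialic acid, which is made in the cytosol and nucleus and carried into the Golgi. The St3gal and St6gal enzymes add it to galactose, the St6galnac enzymes add it to N-acetylgalactosamine (GalNAc), and the St8sia enzymes extend an existing sialic acid. In the stomach the gel-forming mucins are heavily O-glycosylated, and sialic acid competes on them with fucose and other terminal sugars.

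Total counts were 20327745 and 21717123 in knockout 1 and 2 and 27946423 and 20895793 in wild type 1 and 2. Muc6 itself had 0 and 10 counts in the knockout libraries, against 8542 and 6000 counts in the wild-type libraries, so the targeted gene followed the labels. Gastric glandular genes were abundant in all 4 libraries, with Muc5ac, the surface mucin, at 5778 and 4872 CPM (counts scaled to a library of 1000000) in knockout and 12431 and 7345 CPM in wild type. Several features set libraries apart. Knockout 1 held 218 counts of Gast, the gastrin gene of the antrum, against 0 in knockout 2 and 1 and 0 in wild type 1 and 2. The 5 antral markers summed to 235 and 136 CPM in knockout and 89.4 and 218 CPM in wild type. Gast was only 9.77 CPM of the knockout 1 sum, so the sum hardly reflects it. Of the 3 antral markers tested, 2 were higher in knockout without overlap (26.3% of all genes tested were). In knockout 1 the 8 measured chief cell markers, of which Lipf was 0 in all libraries, summed to 2747 CPM. The sums were 94979 CPM in knockout 2 and 77476 and 181133 CPM in wild type. Most of each sum was Pgc, at 2238 and 79868 CPM in knockout and 63619 and 145529 CPM in wild type. Markers of fibroblasts, smooth muscle and endothelium (20 genes) summed to 512 CPM in knockout 1 and 2579 CPM in knockout 2, against 377 CPM in wild type 1 and 2562 CPM in wild type 2, so they followed the library number and not the genotype. The 4 Y-linked genes measured summed to 1.43 and 2.44 CPM in knockout and 136 and 121 CPM in wild type. Y-linked expression thus divided the libraries as the genotype did, and the labels do not give the sex. For every gene below, a difference of genotype and one of sex therefore cannot be told apart.

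The members differed in direction. St3gal4 was higher in knockout mucosa, St3gal5 and St3gal1 were lower, and St3gal3 and St3gal6 were lower by a smaller amount. St6galnac2 was nearly level, and the 4 remaining genes were scarce. No gene, member or not, passed an adjusted p under 0.05 in edgeR's quasi-likelihood test (0 of 14067, 0.0% called, also 0 by limma), while 2236 genes had an unadjusted p under 0.05 (15.9% called). Of the members, St3gal4 was among those on the higher side (9.22% of all genes) and St3gal1, St3gal3, St3gal5 and St3gal6 on the lower side (6.68%). DESeq2, run as an alternative, called 3 of the members and 7.57% of all genes: it called St3gal4 higher (4.14% of all genes tested were called higher) and St3gal1 and St3gal5 lower (3.43% were called lower). The libraries of the genotypes did not overlap for 6 of the 9 tested members, St3gal4 and St6galnac2 on the higher side and St3gal1, St3gal3, St3gal5 and St3gal6 on the lower side (23.8% of all genes lay there). They did not overlap for 7042 of the 14067 genes (50.1% called), so lack of overlap alone says little about a member. The median log2 fold change of the 9 members was -0.43, against -0.0017 over all genes tested. In bulk tissue, fewer cells of a type and less RNA per cell cannot be told apart for any of these genes.

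**Figure D1:**
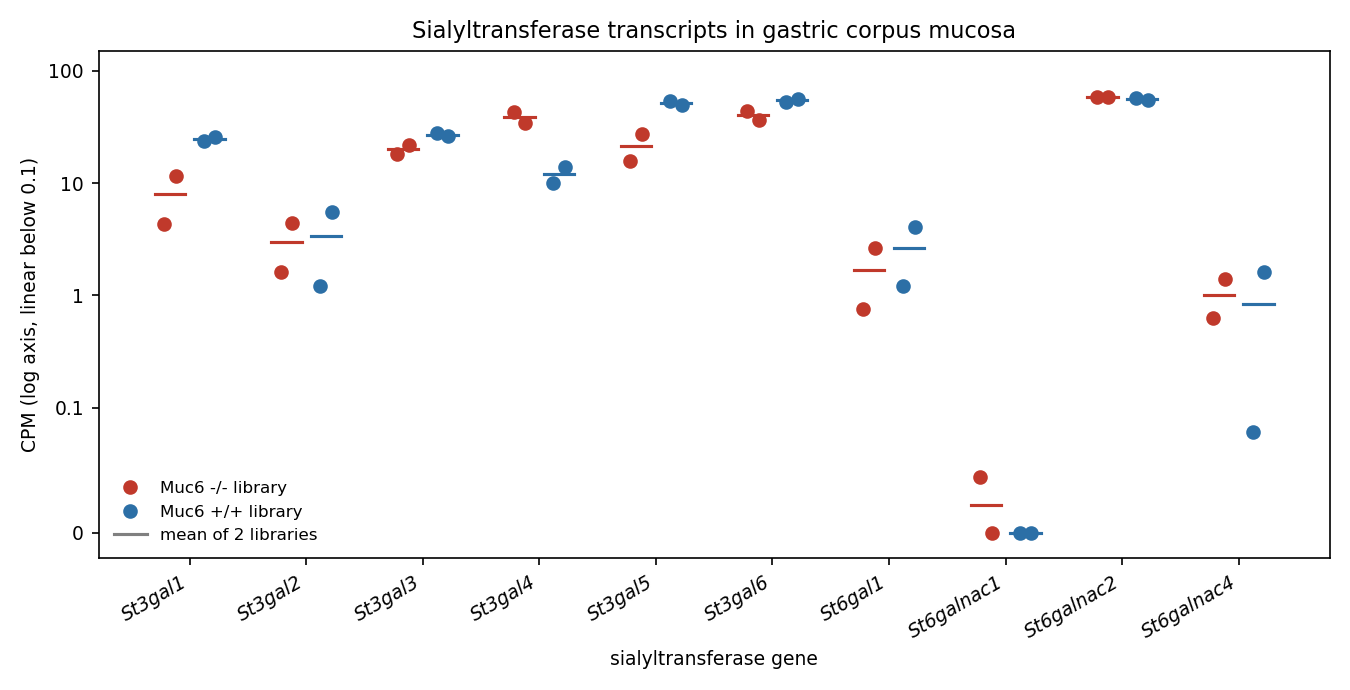
Level of each sialyltransferase gene in CPM (y axis, logarithmic above 0.1 and linear below it) in each knockout library (red, left) and wild-type library (blue, right), with bars at the mean of 2 libraries. St3gal4 lies higher in both knockout libraries, St3gal1, St3gal3, St3gal5 and St3gal6 lie lower in both, and the points of St6galnac2 nearly coincide.

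St3gal4 adds sialic acid to galactose of N-acetyllactosamine chains and, together with St3gal6, is known for making the sialyl Lewis x structure that selectins bind. It lies on the minus strand of chromosome 9 (ENSMUSG00000032038.7, 35046576 to 35119268, mm10) with 9 annotated transcripts. St3gal4 had 963 and 834 counts in knockout libraries and 251 and 264 counts in wild-type libraries. As CPM these were 43.2 and 34.4 in knockout and 10.1 and 13.8 in wild type. Both knockout libraries thus stood above both wild-type libraries, by 2.50-fold to 4.26-fold over the 4 pairings. The means were 38.8 ± 6.18 CPM in knockout and 11.9 ± 2.56 CPM in wild type (SD, n = 2 each). This gave a log2 fold change of 1.70 ± 0.23 (SE, n = 2 a group; 95% interval 1.07 to 2.33). Its adjusted p was 0.197 by edgeR's quasi-likelihood test (unadjusted p = 0.00161 in the same edgeR fit) and 6.0e-05 by DESeq2. Over the edgeR and limma alternatives the adjusted p of St3gal4 ran between 0.0565 and 0.738. With 1 knockout library left out, the spread comes from the wild-type libraries alone, and the fit assumes that the lone knockout library varies like them. Without knockout 1, the library with Gast counts and few chief cell transcripts, the log2 fold change was 1.48 (edgeR adjusted p = 0.211). DESeq2 without knockout 1 still called it (1.5, adjusted p = 0.0419), when 1.18% of all genes were called higher.

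St3gal5 is GM3 synthase, which sialylates lactosylceramide and so starts the ganglioside series of glycolipids. It lies on the plus strand of chromosome 6 (ENSMUSG00000056091.12, 72097592 to 72154571). St3gal5 was at 15.6 and 27.5 CPM in knockout 1 and 2 and at 53.8 and 48.9 CPM in wild type 1 and 2. The groups did not overlap, and knockout 1 was the lowest library. The means were 21.5 ± 8.42 CPM in knockout and 51.3 ± 3.48 CPM in wild type (SD, n = 2 each). This gave a log2 fold change of -1.25 ± 0.31 (SE, n = 2 a group; 95% interval -2.12 to -0.38). The adjusted p was 0.241 by edgeR, between 0.0192 and 0.738 over the edgeR and limma alternatives, and 0.0143 by DESeq2. Without knockout 1 the log2 fold change was -0.95 (edgeR adjusted p = 0.156), and DESeq2 no longer called it (-0.92, adjusted p = 0.0772). Without knockout 2 edgeR called it (-1.77, adjusted p = 0.0192), when 3.41% of all genes were called lower. That call rests on knockout 1 alone and on the spread of the wild-type libraries, which was smaller than that of the knockout libraries.

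St3gal1 caps the T antigen, the galactose-GalNAc disaccharide at the base of many mucin O-glycans. It lies on the minus strand of chromosome 15 (ENSMUSG00000013846.10, 67102875 to 67176830). St3gal1 was at 4.30 and 11.6 CPM in knockout 1 and 2 and at 23.5 and 25.8 CPM in wild type 1 and 2. Knockout stood below wild type by 2.02-fold to 6.0-fold over the 4 pairings, and the knockout libraries differed from each other more than the wild-type libraries did. The means were 7.97 ± 5.19 CPM in knockout and 24.7 ± 1.64 CPM in wild type (SD, n = 2 each). This gave a log2 fold change of -1.63 ± 0.52 (SE, n = 2 a group; 95% interval -3.06 to -0.19). Its adjusted p was 0.282 by edgeR, between 0.0213 and 0.741 over the edgeR and limma alternatives, and 0.0492 by DESeq2. Without knockout 1 it was -1.13 (edgeR adjusted p = 0.189) and DESeq2 no longer called it (-1.11, adjusted p = 0.17). Without knockout 2 it was -2.57 and edgeR called it (adjusted p = 0.0213), with the same limit. St3gal2, which acts on the same disaccharide and on gangliosides, lies on the plus strand of chromosome 8 (110919922 to 110972480). It was at 1.61 and 4.42 CPM in knockout 1 and 2 and 1.21 and 5.57 CPM in wild type 1 and 2. Its library 2 was the higher in each genotype, and the genotypes overlapped.

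Markers of several cell types differed between the genotypes as well. Over all genes tested, 26.3% were higher and 23.8% lower without overlap, the shares to hold beside the counts below. Summed CPM of the 12 parietal markers was 3038 and 7575 in knockout 1 and 2, against 20776 and 19384 in wild type 1 and 2, with 11 of the 12 not overlapping and lower. From the lowest, the order of the libraries was thus knockout 1, knockout 2, then wild type, as for St3gal5 and St3gal1. The 9 markers of spasmolytic polypeptide-expressing metaplasia (SPEM) summed to 18973 and 10823 CPM in knockout, against 2912 and 2112 CPM in wild type, with 8 of 9 higher and not overlapping. The 6 mucous neck markers, Muc6 among them, summed to 12529.8 and 8411 CPM in knockout and 1449 and 1103 CPM in wild type, with 4 of the 6 higher and 1 lower without overlap. Tff2, which is in both lists, made up most of the mucous neck sums and, in knockout, most of the SPEM sums. It was at 11709 and 7314 CPM in knockout and 1022 and 679 CPM in wild type. The SPEM and mucous neck sums are therefore not independent of each other. In both lists, as for St3gal4, knockout 1 was the highest library and knockout 2 came next. The 12 proliferation markers were all higher without overlap, with sums of 649.5 and 573 CPM in knockout and 333 and 261 CPM in wild type. Pit cell markers summed to 72033 and 55036 CPM in knockout and 123301 and 82058 CPM in wild type, with 4 of 7 lower without overlap. Liver and pancreas markers summed to 193 and 587 CPM in knockout and 1703 and 1495 CPM in wild type, the same order as the parietal markers. Squamous markers summed to 198 and 14.1 CPM in knockout and 1.13 and 0.781 CPM in wild type, with Trp63, Sprr3 and Krtdap at 0 in all libraries. The proliferation and squamous sums were also highest in knockout 1, with knockout 2 next. Each order was thus shared by lists of different cell types. The part of any of these cell types in the sialyltransferase levels was not tested.

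**Figure D2:**
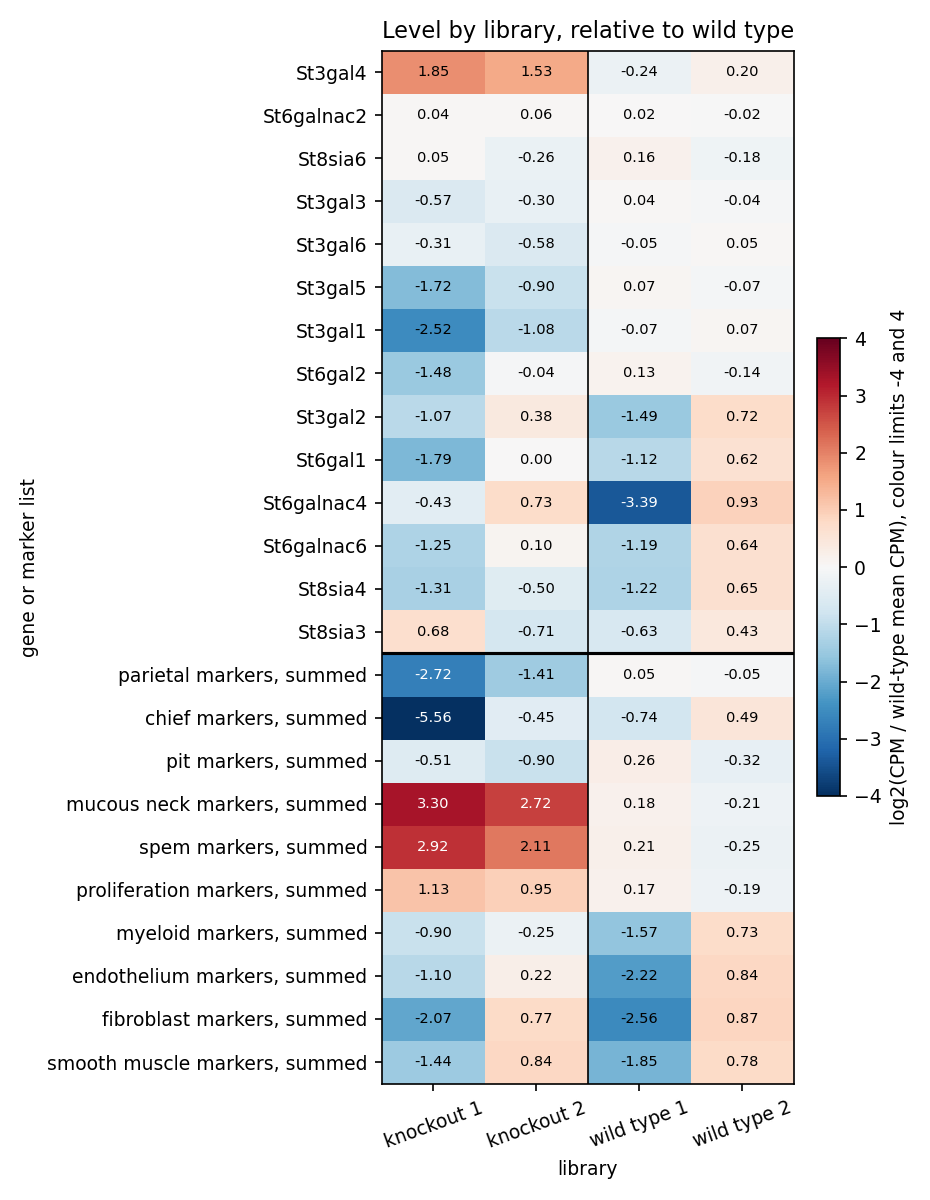
Colour and number give the log2 ratio of CPM to the wild-type mean in each library (columns), for the 14 sialyltransferase genes tested (upper rows) and for summed cell type markers (lower rows). St3gal4 is at 1.85 and 1.53 in the knockout libraries and St3gal5 at -1.72 and -0.90. St3gal2, St6gal1 and St6galnac4 are lower in library 1 of each genotype than in library 2. The stromal, myeloid and chief cell marker sums are so as well.

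St3gal3 and St3gal6 act on N-acetyllactosamine chains as St3gal4 does, with St3gal3 best known for chains in which galactose is joined as in the Lewis a structure. St3gal3, on the minus strand of chromosome 4 (117932154 to 118134914), was at 18.1 and 21.9 CPM in knockout and 27.6 and 26.1 CPM in wild type. St3gal6, on the minus strand of chromosome 16 (58468125 to 58524243), was at 43.9 and 36.5 CPM in knockout and 52.6 and 56.2 CPM in wild type. Neither gene's libraries overlapped between the genotypes. The log2 fold change of St3gal3 was -0.43 ± 0.16 (SE, n = 2 a group; adjusted p = 0.312 by edgeR and 0.383 by DESeq2). That of St3gal6 was -0.44 ± 0.15 (SE, n = 2 a group; adjusted p = 0.302 by edgeR and 0.318 by DESeq2). Exons of St3gal6 share 1603 bases with exons of Dcbld2 on the opposite strand, 26.0% of its exon length. Dcbld2 had 504 and 1487 counts in knockout and 3831 and 2660 counts in wild type. The library kit keeps strand, but whether the counting used it is not given in the sources used here, so reads of this stretch may not be told apart.

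The 250 bases before and 50 after the RefSeq start are shown for St3gal4, St3gal5 and St3gal3, the non-overlapping members with a single such window (RefSeq, GRCm38.p6, 6 of the 10 members matched, in 9 windows). Capitals mark GC boxes (GGGCGG, or CCGCCC on the other strand) and CCAAT boxes (CCAAT, or ATTGG on the other strand), written from 5′ to 3′ on the gene's own strand. The St3gal4 window lies within the annotated gene, since other annotated transcripts start further upstream. The windows are chr9:35116815-35117114 (minus), chr6:72097358-72097657 (plus) and chr4:118134897-118135196 (minus).
St3gal4: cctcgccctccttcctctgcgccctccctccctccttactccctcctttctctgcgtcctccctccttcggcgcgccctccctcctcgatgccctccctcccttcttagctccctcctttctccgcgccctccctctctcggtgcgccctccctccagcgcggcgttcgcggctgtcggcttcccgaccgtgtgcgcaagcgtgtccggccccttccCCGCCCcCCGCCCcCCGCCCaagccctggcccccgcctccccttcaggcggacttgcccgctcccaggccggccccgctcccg
St3gal5: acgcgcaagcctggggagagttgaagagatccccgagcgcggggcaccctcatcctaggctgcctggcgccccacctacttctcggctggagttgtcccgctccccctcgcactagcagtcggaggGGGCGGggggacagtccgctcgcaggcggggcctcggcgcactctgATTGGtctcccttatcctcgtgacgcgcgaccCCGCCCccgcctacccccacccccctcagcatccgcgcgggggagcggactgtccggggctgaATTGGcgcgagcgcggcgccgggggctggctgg
St3gal3: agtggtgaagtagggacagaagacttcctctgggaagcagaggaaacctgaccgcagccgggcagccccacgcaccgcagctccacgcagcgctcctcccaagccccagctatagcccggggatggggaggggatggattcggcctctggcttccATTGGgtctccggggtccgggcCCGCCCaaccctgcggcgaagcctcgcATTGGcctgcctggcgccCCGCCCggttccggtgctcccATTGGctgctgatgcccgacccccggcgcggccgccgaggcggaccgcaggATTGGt
The St3gal4 window held 3 GC boxes and no CCAAT box. That of St3gal5 held 2 GC boxes and 2 CCAAT boxes, and that of St3gal3 held 2 GC boxes and 4 CCAAT boxes. All 3 windows were rich in G and C, at 74.0%, 72.7% and 70.0%, against a median of 52.7% over the 32851 windows of all genes. A GC box occurred in 35.7% of all windows and a CCAAT box in 37.4%. No TATAAA stood in any of the 3 windows on either strand, while 13.6% of all windows held it. These matches are descriptions of the letters and were not tied to the levels.

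Against wild type, St3gal4 lay on the other side from St3gal3 and St3gal6. Ratios of counts within a library do not depend on how libraries are scaled. St3gal4 over St3gal6 was 0.984 and 0.943 in knockout 1 and 2 and 0.193 and 0.245 in wild type 1 and 2. St3gal4 over St3gal3 was 2.38 and 1.57 in knockout, against 0.366 and 0.526 in wild type. St3gal4 over St3gal5 was 2.78 and 1.25 in knockout and 0.188 and 0.281 in wild type. Each of these ratios was higher in both knockout libraries than in both wild-type libraries. This follows from the levels above, where St3gal4 was higher and the other genes lower without overlap, and adds no separate evidence. St3gal3 over St3gal6, at 0.413 and 0.600 in knockout and 0.526 and 0.465 in wild type, overlapped.

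St6galnac2 adds sialic acid to the GalNAc of O-glycans, and was the member with the most even level. It lies on the minus strand of chromosome 11 (116675303 to 116694868) and had 57.6 and 58.1 CPM in knockout and 56.5 and 55.2 CPM in wild type. Its log2 fold change was 0.05 ± 0.12 (SE, n = 2 a group; adjusted p = 0.878 by edgeR), and the 95% interval of -0.28 to 0.38 leaves room for a modest difference either way. A further gene entry of the same symbol overlaps it on the same strand and had 27 and 34 counts in knockout and 39 and 18 in wild type, so the estimate may have split a small part of its reads. St6galnac1, the enzyme known for making sialyl-Tn, had 1 and 0 counts in knockout and 0 and 0 in wild type. A count of 0 allows up to 3 counts (a one-sided 95% limit), or 0.124 CPM in knockout 2 and 0.121 and 0.156 CPM in wild type 1 and 2, and the limit covers counting error only. At this depth no level of St6galnac1 could be set apart from 0 in either genotype.

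St6gal1 makes the sialylated N-glycan ends that the B cell lectin CD22 binds, and St6galnac4 adds sialic acid to the GalNAc of an already sialylated T antigen. St6gal1 lies on the plus strand of chromosome 16 (23224740 to 23360350), and St6galnac4 on the plus strand of chromosome 2 (32587095 to 32599698), 10 bases from St6galnac6. St6gal1 was at 0.762 and 2.64 CPM in knockout 1 and 2 and at 1.21 and 4.06 CPM in wild type 1 and 2. St6galnac4 had 14 and 34 counts in knockout and 2 and 31 counts in wild type. The 2 counts of wild type 1 carry an exact Poisson interval of 0.242 to 7.22 (95%, counting error only), which does not reach the 31 counts of wild type 2 (21.1 to 44.0). In both genotypes library 2 stood above library 1. St3gal2, St6gal1 and St6galnac4 were each more than 2-fold higher in library 2 than in library 1 of both genotypes, which held for 7.81% of all genes tested. Of the stromal and immune markers tested, 26 of 34 did so, as did St6galnac6 among the sialyltransferases outside the 10. The log2 fold changes were -0.16 ± 0.96 for St3gal2, -0.62 ± 0.95 for St6gal1 and 0.28 ± 1.41 for St6galnac4 (SE, n = 2 a group), smaller than their errors. The sum of chief cell markers was also higher in library 2 of each genotype. It was 2747 and 94979 CPM in knockout 1 and 2 and 77476 and 181133 CPM in wild type 1 and 2. The part of stromal tissue, immune cells or chief cells in these levels was not tested.

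**Figure D3:**
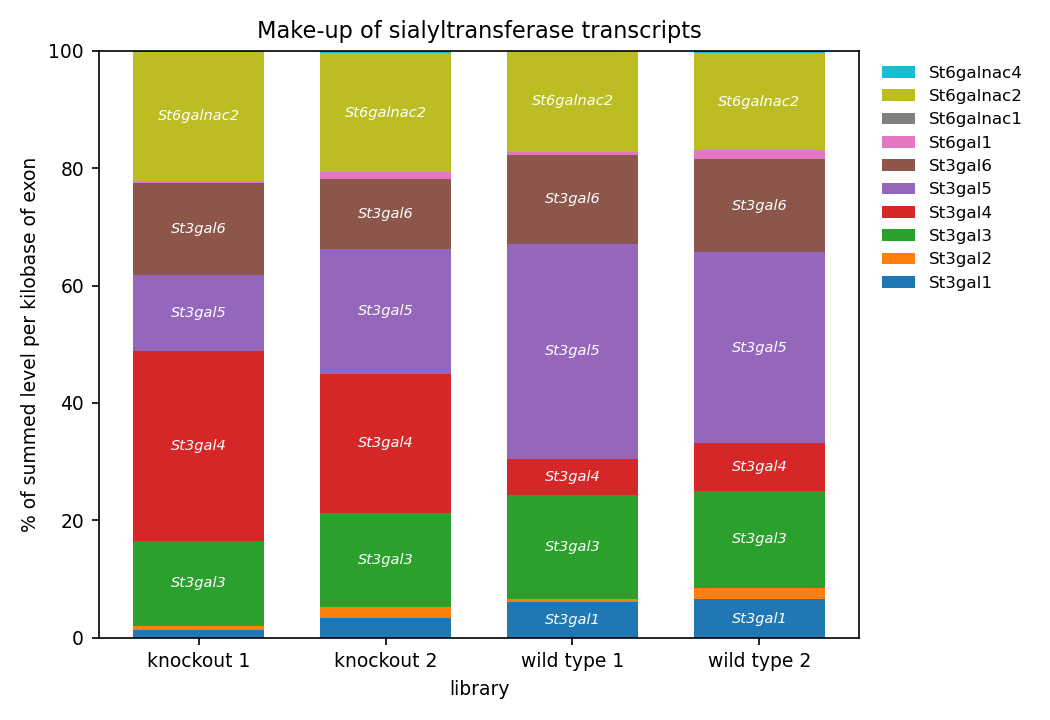
Each bar is a library and each colour a gene, with the height giving the gene's percentage of the summed CPM per kilobase of exon over the 10 genes. St3gal4 takes 32.4% and 23.8% in the knockout libraries and 6.16% and 8.19% in the wild-type libraries, and St3gal5 takes 13.0% and 21.2% against 36.6% and 32.5%.

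Levels of different genes were compared as CPM per kilobase of exon. In knockout St3gal4 had the highest level of the 10 in both libraries, at 14.8 and 11.8 CPM per kilobase. St6galnac2 came next by mean level (9.95 and 10 CPM per kilobase), followed by St3gal5 (5.94 and 10.5), St3gal3 (6.54 and 7.91) and St3gal6 (7.11 and 5.91). The ranges of these 4 overlapped in part: St3gal5 spanned St6galnac2 and St3gal3, and St3gal3 overlapped St3gal6. In wild type the highest level was that of St3gal5, at 20.5 and 18.7 CPM per kilobase. St3gal3 (9.98 and 9.45 CPM per kilobase) and St6galnac2 (9.75 and 9.54) overlapped below it, then came St3gal6 (8.52 and 9.11), and St3gal4 ranked 5 at 3.46 and 4.70. St3gal1 ranked 6 in every library. The sum over the 10 genes was 45.5 and 49.5 CPM per kilobase in knockout and 56.2 and 57.4 CPM per kilobase in wild type. It was therefore lower in both knockout libraries, though by less than St3gal5 alone. With the longest transcript in place of all exons as the length, St3gal4 was still first in both knockout libraries and St3gal5 first in both wild-type libraries.

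Grouped by acceptor, the makers of sialylated N-acetyllactosamine (St3gal3, St3gal4 and St3gal6) took 62.4% and 51.8% of the summed level per kilobase in knockout and 39.1% and 40.5% in wild type. The T antigen enzymes St3gal1 and St3gal2 took 2.08% and 5.21% in knockout and 6.54% and 8.49% in wild type. The St6galnac genes took 22.1% and 20.7% in knockout and 17.4% and 17.0% in wild type. The libraries of the genotypes did not overlap in any of these shares. A share also rises when the level of other genes falls. The summed level of the St6galnac genes itself was nearly even, at 10.1 and 10.3 CPM per kilobase in knockout and 9.77 and 9.79 in wild type. That of the N-acetyllactosamine group was 28.4 and 25.6 in knockout and 22.0 and 23.3 in wild type. St6gal1 took 0.340% and 1.09% in knockout and 0.438% and 1.44% in wild type, which overlapped. Transcript shares measure neither enzyme activity nor glycans.

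Of the other 10 sialyltransferase genes, 5 had enough counts to be tested and none of these had libraries that did not overlap between the genotypes. St8sia6, which extends sialic acid on O-glycans, was the most abundant of them, at 45.1 and 36.5 CPM in knockout and 48.8 and 38.4 CPM in wild type (log2 fold change -0.10 ± 0.20, SE, n = 2 a group; 95% interval -0.64 to 0.45). Its level per kilobase, 5.89 and 4.76 in knockout and 6.37 and 5.01 in wild type, was above that of St3gal1. St6gal2 had 224 and 656 counts in knockout and 758 and 485 counts in wild type, and by CPM knockout 1 alone stood low. By edgeR the log2 fold change of St6gal2 was -1.53 without knockout 2, -0.09 without knockout 1 and -0.59 with all libraries. With all libraries edgeR did not call it (adjusted p = 0.651). St6galnac6, which acts on gangliosides, was at 1.17 and 2.97 CPM in knockout and 1.21 and 4.32 CPM in wild type. St8sia3 and St8sia4 stayed at or below 1.30 and 1.93 CPM in every library. St6galnac3, St6galnac5, St8sia1, St8sia2 and St8sia5 had between 0 and 19 counts in any library and were not tested.

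Genes that supply sialic acid were mostly higher in knockout. Of the 9 tested, 8 had a positive log2 fold change, as did 7013 of all 14067 genes tested. Without overlap, 5 of the 9 were higher (26.3% of all genes tested were), and their median log2 fold change was 0.59 over all 9. That median was 0.37 without knockout 1, 0.35 without knockout 2 and 0.86 without wild type 2. None passed the edgeR test, and DESeq2 called 1, Nans, higher (4.14% of all genes were). Nans, which makes the phosphorylated form of sialic acid, was at 65.6 and 55.9 CPM in knockout and 31.0 and 31.9 CPM in wild type. Knockout stood above wild type by 1.75-fold to 2.12-fold over the 4 pairings (log2 fold change 0.95 ± 0.14, SE, n = 2 a group; adjusted p = 0.209 by edgeR and 0.00219 by DESeq2). Without knockout 1 it was 0.78 (edgeR adjusted p = 0.188) and DESeq2 no longer called it (adjusted p = 0.205). Without knockout 2 edgeR called it (adjusted p = 0.0389), when 2.39% of all genes were called higher. Gne, the rate-limiting enzyme of the pathway, was at 32.5 and 55.8 CPM in knockout and 24.3 and 27.2 CPM in wild type. Renbp, an epimerase that interconverts the precursor sugars, was low, at 2.78 and 3.14 CPM in knockout and 0.524 and 1.09 CPM in wild type. Gne and Renbp were thus also higher in both knockout libraries, with log2 fold changes of 0.78 ± 0.30 and 1.87 ± 0.59 (SE, n = 2 a group; adjusted p = 0.336 and 0.278 by edgeR). By DESeq2 the log2 fold change of Gne was 1.09 without knockout 1 and 0.32 without knockout 2, so its size rested on knockout 2. Nanp, the phosphatase after Nans, was at 3.36 and 2.31 CPM in knockout and 1.53 and 1.93 CPM in wild type, and Casd1, which O-acetylates sialic acid, at 15.6 and 19.7 CPM in knockout and 9.32 and 14.2 CPM in wild type.

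The remaining genes of this list showed no such separation. Cmas, which activates sialic acid to CMP-sialic acid, was at 107 and 66.2 CPM in knockout and 82.6 and 60.5 CPM in wild type. Slc35a1, the carrier into the Golgi, was at 62.2 and 50.9 CPM in knockout and 67.0 and 51.1 CPM in wild type. Cmah, which hydroxylates the sugar, was at 3.50 and 4.67 CPM in knockout and 3.27 and 3.80 CPM in wild type. These genes overlapped between the genotypes, as did Nagk, a kinase that salvages the precursor sugar, with a log2 fold change of 0.05. Nans over Slc35a1 within a library was 1.05 and 1.10 in knockout and 0.463 and 0.624 in wild type.

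**Figure D4:**
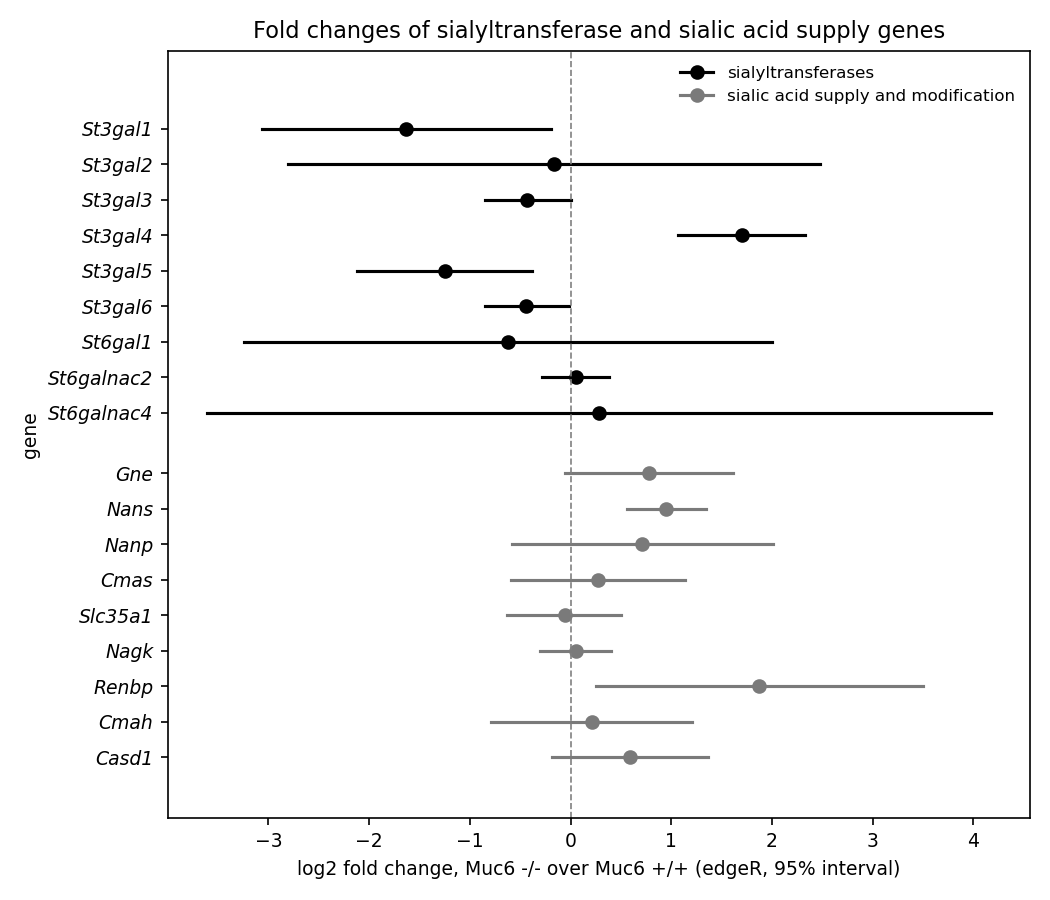
Log2 fold change of knockout over wild type (x axis; points from edgeR, lines the unadjusted 95% interval) for the 9 tested sialyltransferase genes (black) and the 9 genes of sialic acid supply and modification (grey). The intervals of St3gal4 (1.07 to 2.33) and Nans (0.56 to 1.34) lie above 0 and that of St3gal5 (-2.12 to -0.38) below it.

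Among 7 tested genes that remove or recycle sialic acid, none was called by edgeR or DESeq2. The lysosomal sialidase Neu1 was at 62.4 and 62.2 CPM in knockout and 82.5 and 61.4 CPM in wild type. The membrane sialidase Neu3, which acts on gangliosides, was at 1.03 and 1.36 CPM in knockout and 2.14 and 2.71 CPM in wild type. Npl, a sialic acid lyase, was at 0.314 and 0.578 CPM in knockout and 0.726 and 0.886 CPM in wild type. Neu3 and Npl were the 2 genes of the list lower without overlap (23.8% of all genes tested were). A further 1 was higher without overlap (26.3% of all genes tested were). Npl was scarce, with 7 and 14 counts in knockout and 18 and 17 counts in wild type. Of the 12 sialic acid lectin genes listed, 2 had enough counts to be tested and neither was called by edgeR or DESeq2. They were Siglecf, a lectin of eosinophils, at 5.11 and 5.53 CPM in knockout and 4.28 and 3.65 CPM in wild type, and Cd33, a myeloid lectin, at 0.179 and 0.454 CPM in knockout and 0.403 and 1.41 CPM in wild type.

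The 10 tested genes of ganglioside metabolism, a list without St3gal5, were split, with 4 higher and 4 lower without overlap (26.3% and 23.8% of all genes). Ugcg, which makes the glucosylceramide that precedes lactosylceramide, was at 85.9 and 105 CPM in knockout and 186 and 153 CPM in wild type (log2 fold change -0.83 ± 0.20, SE, n = 2 a group; adjusted p = 0.237 by edgeR and 0.00606 by DESeq2). B4galnt1, which extends GM3 to GM2, was at 172 and 160.0 CPM in knockout and 304 and 264 CPM in wild type (-0.77 ± 0.18, SE, n = 2 a group; adjusted p = 0.231 by edgeR and 9.06e-04 by DESeq2). The groups did not overlap for either gene. Gla, a lysosomal galactosidase of glycolipid breakdown, was higher, at 21.2 and 18.3 CPM in knockout and 12.1 and 11.5 CPM in wild type (adjusted p = 0.226 by edgeR and 0.108 by DESeq2). Of the 10 genes in this list DESeq2 called Ugcg and B4galnt1, both lower (3.43% of all genes were), and edgeR called none. Without knockout 1 DESeq2 called B4galnt1 (adjusted p = 0.00367, when 2.61% of all genes were called lower) and not Ugcg (adjusted p = 0.0811).

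Makers of the galactose ends that sialyltransferases use were mixed. Of 14 tested, 3 were higher and 2 lower without overlap (26.3% and 23.8% of all genes), and neither edgeR nor DESeq2 called any. B3galt5, which builds the chain end that St3gal3 prefers, was at 55.1 and 17.1 CPM in knockout and 13.4 and 7.50 CPM in wild type. Gcnt4, an O-glycan branching enzyme, was at 13.3 and 2.56 CPM in knockout and 2.38 and 1.82 CPM in wild type, with knockout 1 far above the others. Without knockout 2 the log2 fold change was 2.6 for Gcnt4 by edgeR and 2.39 for B3galt5 by DESeq2. Without knockout 1 it was 0.24 for Gcnt4 by edgeR and 0.69 for B3galt5 by DESeq2, so the size of both differences rested on knockout 1. B4galt1, the main N-acetyllactosamine galactosyltransferase, was at 149 and 146 CPM in knockout and 232 and 176 CPM in wild type.

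A broad list of fucosyltransferases and other enzymes that may compete with sialic acid had 11 tested genes. Not all of them act at chain ends, since Fut8 adds fucose at the core of N-glycans and Chst4 adds sulfate. The median log2 fold change of the 11 was -0.90, which was also the value of Fut8. That median was -0.28 by limma, -0.42 with a filter of 50 counts and 0.08 without wild type 2, so its sign rested on that library. DESeq2 called 1 of the 11 higher and 5, Fut8 among them, lower (4.14% and 3.43% of all genes), and edgeR called none. Fut4, a fucosyltransferase that acts on the N-acetyllactosamine that St3gal4 sialylates, was at 53.5 and 44.0 CPM in knockout and 232 and 173 CPM in wild type (log2 fold change -2.05 ± 0.24, SE, n = 2 a group; adjusted p = 0.180 by edgeR). Abo, which adds the blood group sugars, stood at 16.8 and 8.59 CPM in the knockout libraries, against 0.363 and 0.521 CPM in the wild-type libraries. B4galnt3, which adds GalNAc, stood at 22.2 and 21.6 CPM in the knockout libraries, against 86.5 and 51.6 CPM in the wild-type libraries. The adjusted p by edgeR was 0.180 for Abo and 0.210 for B4galnt3. Each of Fut4, Abo and B4galnt3 kept its direction when any single library was left out. Without knockout 2, with knockout 1 alone in its group, the edgeR log2 fold changes were -1.97 for Fut4 and 5.18 for Abo.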

How the data were processed

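Gene counts came from 4 stranded polyadenylated RNA libraries, 2 per genotype, per the labels' protocols. The authors deposited 1 table of estimated counts per gene with no normalization that the values show, and 35.0% of nonzero values were not whole. They were rounded before testing. The build was mm10, per the submitters' processing notes; the sources used here do not name aligner, counter, annotation or use of strand. Of 34866 rows, 34652 matched GENCODE M21 by identifier without version, which gave symbols, positions and exon lengths.

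The fit was edgeR 4.0.16 in R 4.3.3 (quasi-likelihood with genotype as the single term, TMM factors and robust dispersion). Genes were filtered by filterByExpr at a minimum of 10 counts, which left 14067, and p-values were adjusted over all of them by Benjamini-Hochberg at 0.05. Standard errors are the log2 fold change over the root of the F statistic, and 95% intervals use its degrees of freedom without adjustment for the number of genes. CPM uses TMM-scaled library sizes. DESeq2 1.42.0 and limma 3.58.1 (voom) were alternatives, beside other factors, filters, dispersions, the title number as a block and each library left out. DESeq2 without each knockout library was added after seeing the data. The procedure was tested on simulated data. With 2 against 2 libraries an exact permutation test cannot go below 0.33, so genes were tested only in fits across all genes. Libraries of a genotype were not duplicates (chi-square per degree of freedom 272 in knockout and 139 in wild type).

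The members, lists, tests and naming rule were chosen with earlier results of these data known. Named were all members, Muc6, all other sialyltransferase and supply genes, and in each further list the 3 tested genes with the smallest p, since none passed. Dcbld2, the second St6galnac2 entry, Fut8 and Chst4 were named after their values were seen.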

Additional observations from a re-analysis of the deposited data

How the results depend on the processing

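The number of genes past the threshold was 0 with all 4 libraries and moved to 9 with no filter on low counts (5 higher, 4 lower) and to 1044 by DESeq2 (571 higher, 473 lower). With 1 library left out, by edgeR or DESeq2, it ran from 0 to 1511, with 0 to 679 higher and 0 to 832 lower; edgeR without knockout 2 gave 851 and DESeq2 without knockout 1 gave 160 higher and 353 lower. The cause was not tested. Members called were 3 by DESeq2 (St3gal1 at -1.66, St3gal4 at 1.68, St3gal5 at -1.28) and 0 to 3 with 1 library left out. With 1 library left out the log2 fold changes ran from -2.57 to -1.11 for St3gal1, 1.48 to 1.93 for St3gal4, -1.77 to -0.92 for St3gal5, -0.62 to -0.32 for St3gal3 and for St3gal6, and the median of the members from -0.66 to 0.03. These 5 genes kept their direction under every alternative run.

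Directions also turned for several genes. St3gal2, at -0.16, was 0.20 by limma and 0.01 with the replicate block, and -1.14 to 1.31 with 1 library left out. The same ranges were -1.85 to 0.49 for St6gal1, -0.01 to 0.07 for St6galnac2, -0.66 to 3.57 for St6galnac4, -1.49 to 0.37 for St8sia4, -0.30 to 0.09 for St8sia6, -1.31 to 0.77 for St6galnac6, -0.76 to 0.76 for St8sia3, -0.16 to 0.57 for Cmas, -0.07 to 0.38 for Cmah, -0.05 to 0.12 for Nagk, -0.26 to 0.15 for Slc35a1 and -0.41 to 0.03 for Neu1.

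The numbers in the titles do not say that libraries were paired. Deviations of same-numbered libraries from their genotype mean correlated at 0.517 across 14067 genes, which are not independent replicates. With the replicate block edgeR called 0 genes, and the adjusted p was 0.128 for St3gal4, 0.156 for St3gal5 and 0.157 for St3gal1. The libraries of St3gal2, St6gal1 and St6galnac4 were too uneven at these counts for a direction.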
